A study of Mus musculus with 59 samples.

Results

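Transcripts that mark brain cells other than microglia were followed as a measure of other cells in primary microglial cultures of newborn mice. The list held 37 gene names, 10 of the oligodendrocyte lineage, 7 of astrocytes, 9 of neurons and 11 of blood vessels and connective tissue. A row was found for 36 of them among 32070 genes, and Cldn5 was not analysed here. The rule uses gene names alone and no measured value.

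Microglia, the macrophages of the brain, came from P0 and P1 pups and were set up as 5 independent cultures per the labels. KO cultures were Tbk1fl/fl with Cre under Cx3CR1, a gene of microglia and other macrophages, HET cultures were Tbk1fl/+ with the same Cre, and WT cultures were Tbk1fl/fl without Cre, so a difference from WT also holds Cre, and all groups carry at least 1 floxed allele. Purified cells rested for 16 h and then had 24 h of lipopolysaccharide at 100 ng/mL (LPS), interleukin-4 at 20 ng/mL (IL4), poly(I:C) (pIC, dose not given in the sources used here) or no stimulus (UT). Every group had 5 libraries except untreated WT with 4, whose number 5 was not analysed here, which gave 59 libraries in 12 groups.

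Brain microglia are commonly freed from mixed glial cultures, in which oligodendrocyte progenitors grow on a bed of astrocytes. Progenitors carry the lineage factors Olig1, Olig2 and Sox10 and the growth factor receptor Pdgfra, and switch on myelin genes in a set order as they mature, with Mog and Mobp late. In RNA from a whole culture, fewer cells of a type and less RNA per cell cannot be told apart.

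Values are TPM, a length-corrected share of a library's transcripts that sums to the same total in each library and can be compared between genes. Depth per library is unknown, because TPM does not keep it. Tbk1 ran from 11.1 to 30.8 TPM in KO libraries, from 27.6 to 66.7 in HET and from 42.2 to 101 in WT, with KO lowest and WT highest without overlap in each treatment. All 15 microglial markers checked, such as Csf1r and C1qa, were at 1 TPM or more in every untreated library. Their summed level was 3885 to 7675 TPM with LPS, 15400 to 19230 with IL4, 10320 to 17700 with pIC and 14180 to 18700 untreated.

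Transcripts of other brain cells made up a small share of each library. In the 14 untreated libraries the 36 transcripts summed to between 724 and 2751 TPM, or 0.0724% to 0.275% of the total. The oligodendrocyte lineage gave most of it, with a median of 1141 TPM, against 203 for the neuron members, 159.8 for the astrocyte members and 18.6 for the vascular and stromal members. Between the lowest and the highest untreated library the oligodendrocyte sum differed 4.14-fold and the vascular and stromal sum 10.2-fold.

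**Figure D1:**
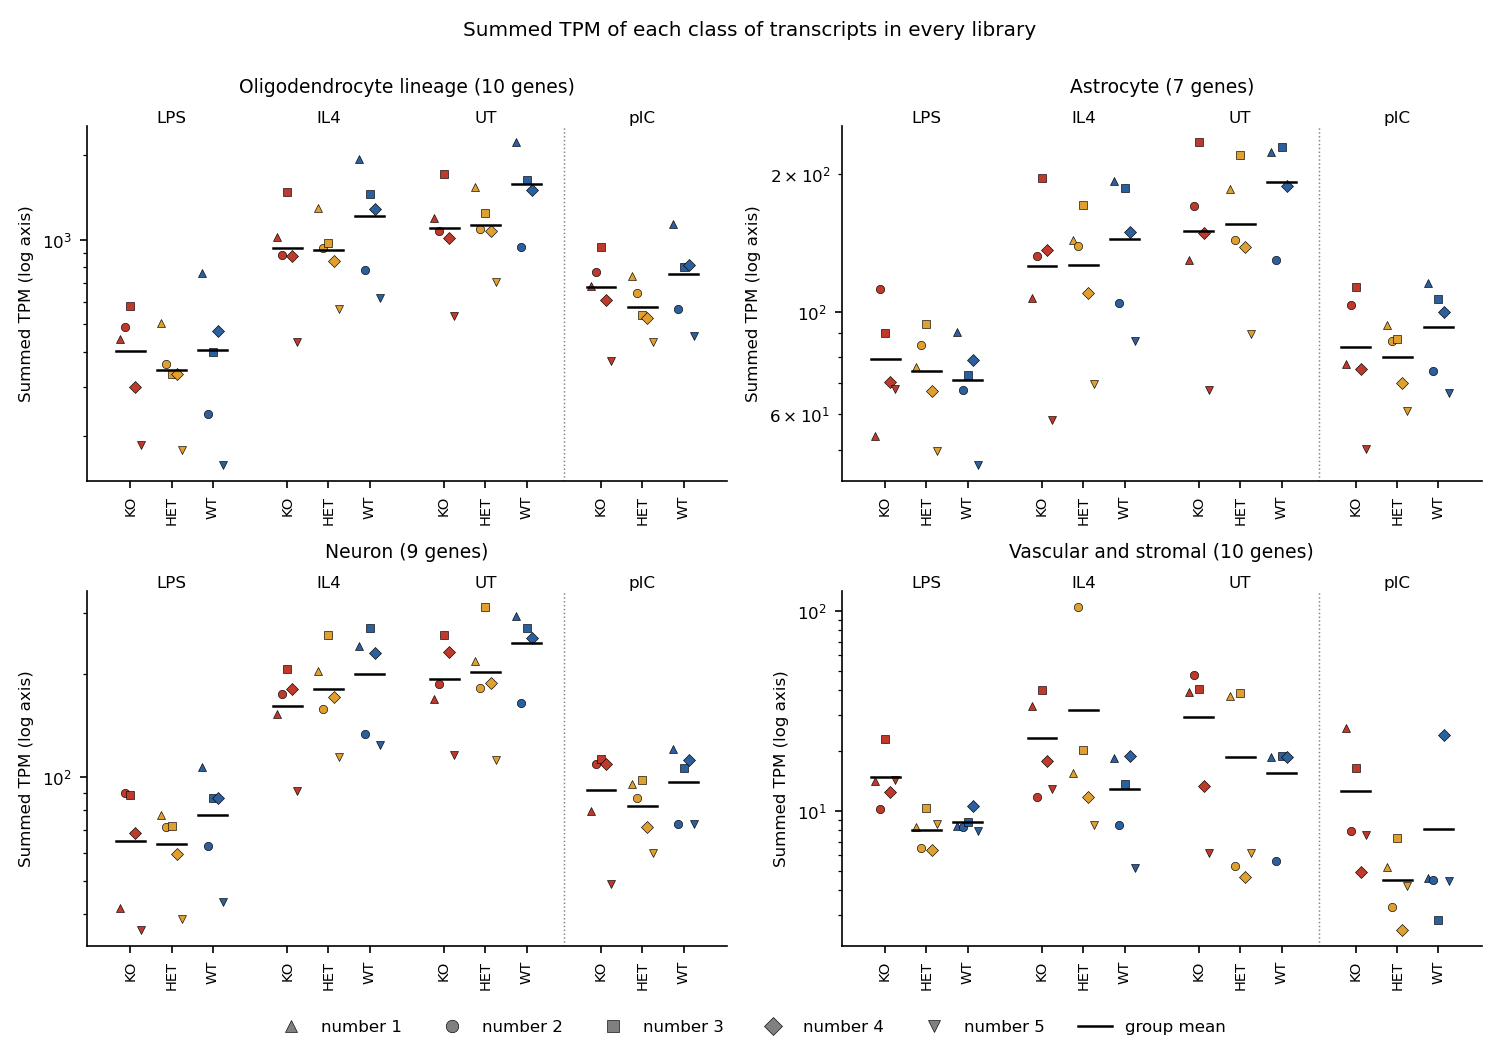
Summed TPM (log axis) of the members of each class in every library, by treatment and genotype. Shapes give the replicate number and bars the group mean. Oligodendrocyte sums lie between 158 and 2215 TPM, number 5 is lowest in every group that has it, and 1 HET IL4 library stands at 104 TPM in the vascular and stromal panel. The pIC libraries come from a separate table.

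Among oligodendrocyte transcripts the lineage factor Olig1 was highest, at 392 ± 107 TPM over the 14 untreated libraries (SD). Mbp, which encodes myelin basic protein and from an upstream start also makes transcripts known in immune cells, stood at 258 ± 142, and Olig2, the partner of Olig1, at 177 ± 50.9. In untreated KO cultures Olig1 read 359.8, 362, 484, 381 and 202 TPM, in HET 470.3, 358, 431, 359 and 227, and in WT 606, 313, 491 and 451. All 3 genotypes overlapped, and the number 5 cultures of KO and HET were the lowest of the 14. Of the other members, chosen for mention after their values were seen, Sox10 averaged 163 TPM, the enzyme gene Cnp 113, Pdgfra 108, the myelin glycoprotein gene Mag 22.0 and the progenitor proteoglycan gene Cspg4 11.4.

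Late myelin genes were low. Mobp, which encodes a structural protein of compact myelin, reached 1 TPM in 6 of the 14 untreated libraries, and Mog, a surface protein of mature myelin, in 4. In untreated KO cultures Mobp read 3.18, 0.715, 3.83, 0.965 and 0 TPM, in HET 6.05, 0.732, 0.586, 0.718 and 0.111, and in WT 13.3, 1.17, 2.37 and 0.512. The number 1 cultures were high in HET and WT, and in KO numbers 1 and 3 were high. Among 20 further lineage genes the highest were Tnr (247 TPM) and Ptprz1 (200 TPM), both made by progenitors, and Bcas1 (242 TPM), which is made as progenitors begin to myelinate. Mal, Ermn and Opalin, which belong to mature myelin and were chosen for mention after their values were seen, averaged 0.278, 0.238 and 0.425 TPM.

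The level of Mobp relative to Pdgfra in the same library ranged from 0 to 0.0712 untreated, and that of Mag relative to Pdgfra from 0.0826 to 0.367. Olig2 relative to Olig1 kept to a narrow band of 0.395 to 0.503. The plot by replicate number shows Mobp between 0 and 13.3 TPM, Mag between 4.61 and 68.4 and Pdgfra between 47.9 and 186.

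**Figure D2:**
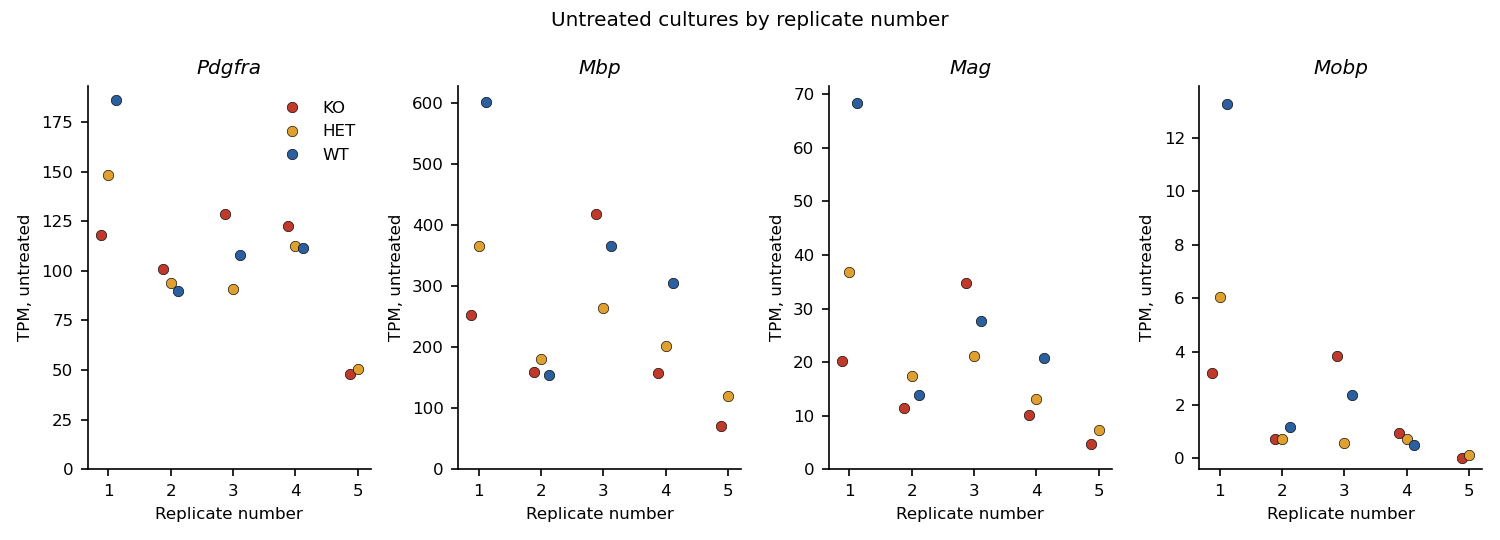
TPM of Pdgfra, Mbp, Mag and Mobp in the 14 untreated libraries, by replicate number and genotype (linear axes). Each point is 1 library. The number 5 libraries are lowest in all 4 panels, where KO and HET have them and WT does not, and the WT library with number 1 is highest, at 601 TPM for Mbp, 68.4 for Mag and 13.3 for Mobp.

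Windows before 2 start sites show the sequence from which an early and a late gene of the lineage are read. They are the 250 bases before the RefSeq transcript start on the plus strand of GRCm38.p6, for Olig2 chr16:91225300-91225549 and for Mobp chr9:120149492-120149741, written 5′ to 3′. Olig2 was taken by rule as 1 of the 3 highest oligodendrocyte members, and Mobp was chosen after its values were seen. The GENCODE gene models start at 91225457 and 120149707, so the end of each window lies inside them, a longer stretch for Olig2. The 1 match marked in the Olig2 window lies inside its gene model, and those of Mobp lie before its model.
Olig2: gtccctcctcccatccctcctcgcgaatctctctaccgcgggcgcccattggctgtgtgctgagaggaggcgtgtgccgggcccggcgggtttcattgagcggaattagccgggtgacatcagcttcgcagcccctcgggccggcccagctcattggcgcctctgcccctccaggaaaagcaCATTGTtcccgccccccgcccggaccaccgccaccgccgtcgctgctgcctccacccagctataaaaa
Mobp: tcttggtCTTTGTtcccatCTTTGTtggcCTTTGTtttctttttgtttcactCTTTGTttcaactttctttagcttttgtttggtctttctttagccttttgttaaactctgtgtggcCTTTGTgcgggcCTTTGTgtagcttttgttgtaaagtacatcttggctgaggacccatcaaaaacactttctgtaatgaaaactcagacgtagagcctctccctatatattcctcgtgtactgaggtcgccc
Capitals mark the letters ACAAAG or ACAATG on either strand, the core that SOX factors such as Sox10 bind. ACAAAG occurs in 16.5% and ACAATG in 10.7% of 32851 promoter windows of this length. The Olig2 window holds 1 match, CATTGT, and the Mobp window holds 6, each CTTTGT. Those of Mog, Pdgfra and Cspg4 hold 0, that of Cnp holds 1, and 2 of the 3 Mag windows hold 1 each. Such matches describe the letters and do not show binding.

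Of the astrocyte members, S100b was highest at 88.0 ± 35.6 TPM over the untreated libraries, followed by Gfap at 31.0 ± 13.2 and Slc1a3 at 24.1 ± 8.10 (SD, n = 14). S100b encodes a calcium-binding protein that oligodendrocytes make as well, Gfap the intermediate filament of astrocytes, and Slc1a3 a glutamate transporter. Aqp4, the water channel of astrocyte endfeet, averaged 3.02 TPM, the second glutamate transporter gene Slc1a2 15.0 and the gap junction gene Gja1 0.897, all named after their values were seen. S100b relative to Olig1 ranged from 0.146 to 0.304 across untreated libraries, and Gfap relative to Olig1 from 0.046 to 0.13. Among 12 further astrocyte genes Vim (568 TPM), Fabp7 (397 TPM) and Atp1b2 (190 TPM) were highest. Vim, a filament gene of many cell types, is made by macrophages too, and Fabp7 and Atp1b2 are also made by oligodendrocyte progenitors.

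The neuron members spanned a wide range of levels. Map2, a microtubule protein of dendrites that is also known in oligodendrocyte progenitors, stood at 130 ± 38.8 TPM, Tubb3, a tubulin of young neurons, at 39.6 ± 11.5, and Dcx, a microtubule protein of migrating neuroblasts, at 29.6 ± 9.22 (SD, n = 14 untreated libraries). Map2 relative to Olig1 kept between 0.276 and 0.437, and Dcx relative to Olig1 between 0.063 and 0.0867, although Olig1 itself ran from 202 to 605.5 TPM. Rbfox3, the mature neuron marker NeuN, averaged 1.19 TPM, the synaptic genes Snap25 and Syt1 6.49 and 2.92, the growth cone gene Stmn2 0.820, and Gad2, which makes the transmitter GABA, was under 1 TPM in all 59 libraries. The vesicle transporter genes Slc17a7 and Slc17a6 of glutamate neurons, in the list of 19 further neuron genes, averaged 0.0475 and 0.0126 TPM untreated. Those from Rbfox3 on were chosen for mention after their values were seen, while Gap43 (138 TPM), Stmn3 (46.2 TPM) and Elavl3 (45.9 TPM) were the highest by rule.

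Vascular and stromal transcripts were low and uneven. Acta2, the actin of smooth muscle and myofibroblasts, averaged 9.09 ± 8.00 TPM untreated, Col1a1, a chain of type I collagen, 5.16 ± 5.60, and Col1a2, the other chain, 3.13 ± 3.76 (SD, n = 14). Col3a1, of type III collagen, averaged 2.19 TPM, Dcn 0.559, Lum 0.0454, Pdgfrb 0.114, Pecam1 0.594 and Cdh5 0.582. Some genes that define endothelium and pericytes were near 0, and those named here were chosen after their values were seen. Tek, Tie1 and Emcn averaged 0.0124, 0.013 and 0.00571 TPM, Kcnj8 and Vtn 0.0289 and 0.0114, and the member Rgs5, a pericyte gene, 0.0626 TPM. Of the same endothelial list, Egfl7 averaged 2.70 and Kdr 1.63 TPM, at 1 TPM or more in 14 and 13 of the 14 untreated libraries. Some genes listed as vascular or stromal were far higher, Fn1 at 230 and Sparc at 64.7 TPM among 12 further stromal genes and Flt1 at 26.9 TPM among 10 endothelial ones. Fibronectin, from Fn1, and the growth factor receptor Flt1 are known products of macrophages as well.

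**Figure D3:**
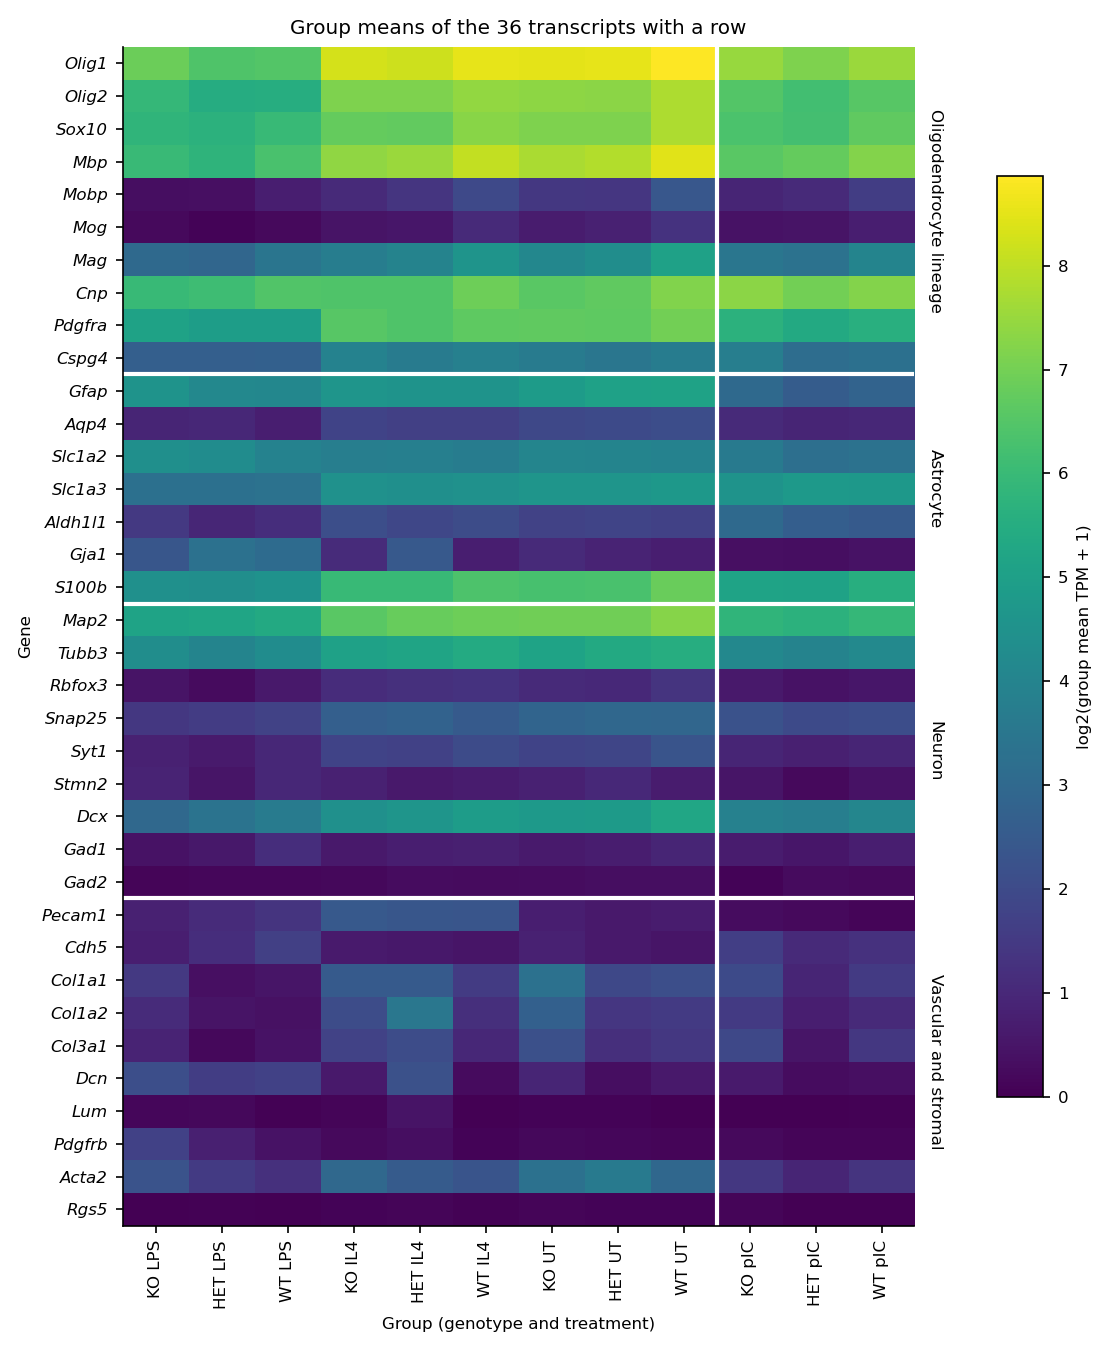
Group means of the 36 transcripts as log2(mean TPM + 1), by class (rows) and by genotype and treatment (columns). Bright rows are Olig1, Olig2, Sox10, Mbp, Cnp and Map2, and dark rows include Mog, Gad2, Lum and Rgs5. The white vertical line sets the pIC groups, from a separate table, apart.

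Number 5 libraries ranked low for the glial and neuronal sums across treatments and genotypes. The summed oligodendrocyte members were lowest in the number 5 library in 11 of the 11 groups that have one and highest in number 1 in 8 of 12. The neuron sum was lowest in number 5 in 10 of 11 groups, and so was the astrocyte sum in 10 of 11. Vascular and stromal sums were lowest in number 5 in 4 of 11 groups. Aldh1l1 was lowest in number 5 in 2 of 11 and highest there in 2.

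A single library stood apart in connective tissue transcripts. The HET IL4 culture with number 2 had 47.6 TPM of Col1a2, against 0.359 to 1.69 in the other 4 of its group, and 17.6 TPM of Col1a1, against 0.352 to 2.69. Col3a1 was at 12.8, against 0.288 to 1.01, Dcn, a collagen-binding proteoglycan of fibroblasts, at 17.4, against 0 to 0.150, and Lum, another such proteoglycan, at 1.85, against 0 in each of the others. Gja1 was at 20.0 TPM there, against 0.505 to 0.946. For Col1a2, Col3a1, Dcn, Lum and Gja1 this was the highest of all 59 libraries, and for Col1a1 the second highest after untreated KO number 2. The summed vascular and stromal members of HET number 2 were 6.50 TPM with LPS, 5.29 untreated and 3.30 with pIC. Leaving this library out changed no count of members called in the HET IL4 comparisons.

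**Figure D4:**
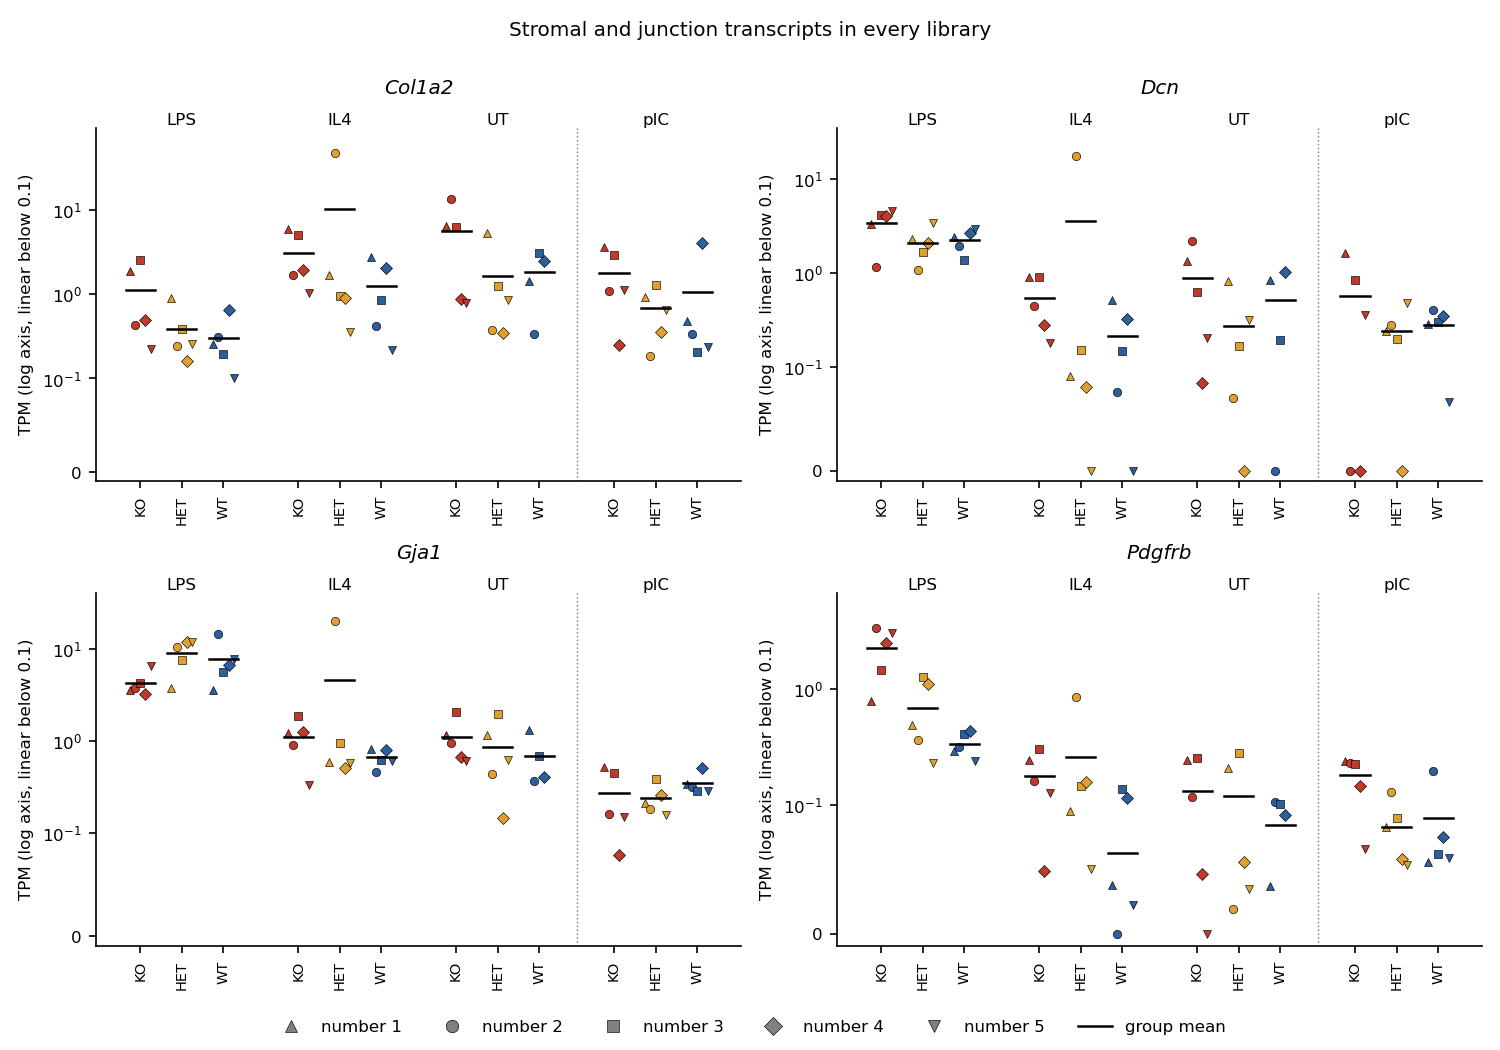
TPM of Col1a2, Dcn, Gja1 and Pdgfrb in every library (log axis, linear below 0.1), with shapes for the replicate number and bars for the group mean. The HET IL4 library with number 2 lies far above its group for Col1a2, Dcn and Gja1, Gja1 is raised in all LPS groups, and Pdgfrb is highest in KO with LPS (0.801 to 3.43 TPM).

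Tests were made on log2(TPM + 1) with limma, with Benjamini-Hochberg adjustment over all genes and calls at 0.05. Of the 37 members, 33 reached 1 TPM in at least 4 libraries of the untreated, LPS and IL4 table and 24 in the pIC table, so Gad2, Lum and Rgs5 were not tested in the first and Mog, Gja1, Rbfox3, Syt1, Stmn2, Gad1, Gad2, Pecam1, Dcn, Lum, Pdgfrb and Rgs5 not in the second. Each value below is a log2 difference ± SE with its adjusted p from that fit, unless another setting is named. That fit uses group means and not the replicate numbers. The replicates are called independent cultures by the labels, and no source used here says whether each stands for separate animals.

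With LPS most transcripts of other brain cells were lower in TPM, and so were most genes of the whole table. Of the members tested, 17 fell and 3 rose in KO, against 56.5% lower and 13.1% higher among all 15908 genes. In HET 19 fell and 5 rose, against 59.7% and 14.3%, and in WT 21 fell and 4 rose, against 61.9% and 13.9%. The share of tested members called was 60.6% in KO, 72.7% in HET and 75.8% in WT, near the shares for all genes of 69.6%, 74% and 75.8%. Of the 15 microglial markers, 11 fell in KO, 12 in HET and 12 in WT, with the lower sums given above, and their part in the members' change was not tested.

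Oligodendrocyte transcripts had the lowest median of the 4 classes in each genotype. In KO 7 of 10 fell, in HET 8 and in WT 9, and the class median was -1.20, -1.42 and -1.84 on the log2 scale, beside -0.444, -0.514 and -0.588 for all genes tested. Untreated WT lacks number 5, the lowest culture elsewhere, and without number 5 in any group the class median was -1.26 in KO, -1.45 in HET and -1.54 in WT, with 7, 8 and 8 lower. The median of the 15 microglial markers in that fit was lower still, at -1.44 in KO, -2.12 in HET and -2.18 in WT. Olig1 read 124, 155, 148, 95.5 and 59.2 TPM in KO cultures with LPS, all below the untreated KO values given above (log2 difference -1.64 ± 0.37, adjusted p = 0.000214). In HET it read 134, 90.1, 92.8, 77.7 and 29.2 (log2 difference -2.22 ± 0.37, adjusted p = 2.09e-06), and in WT 178, 46.8, 88.3, 106 and 27.0 (log2 difference -2.61 ± 0.40, adjusted p = 3.23e-07). Treated and untreated Olig1 did not overlap in any genotype, and the number 5 culture was lowest in each. Mbp averaged 63.3 ± 36.2 TPM with LPS and 212 ± 132 untreated in KO (log2 difference -1.69 ± 0.51, adjusted p = 0.00365). Olig2 averaged 45.4 ± 33.4 with LPS and 216 ± 54.9 untreated in WT (log2 difference -2.57 ± 0.43, adjusted p = 1.45e-06).

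Among the lineage members that fell Cnp, a myelin-associated enzyme, fell least, with log2 differences of -0.68 ± 0.27 in KO, -0.60 ± 0.27 in HET and -0.73 ± 0.28 in WT (adjusted p = 0.0237, 0.0437 and 0.02). With median-of-ratios scaling, which sets the typical gene level between libraries, the Cnp values were -0.16, 0.02 and -0.06 and none was called, so the sign turned in HET. With quantile normalization the fall was called in WT alone (-0.67). In the pIC table Cnp averaged 158 ± 26.9 TPM in KO, 125 ± 14.0 in HET and 149 ± 34.9 in WT (n = 5 each), and Olig1 179 ± 61.9, 139.9 ± 29.2 and 185 ± 52.7. The pIC table was made separately and was not tested against the others. Cnp relative to Olig1 in the same library was 0.712 to 1.31 with pIC, 0.371 to 2.34 with LPS, 0.198 to 0.381 with IL4 and 0.199 to 0.400 untreated. Cnp was named after its values were seen, and outside the nervous system it is known as an interferon-responsive gene.

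Of the 20 further oligodendrocyte genes, 16 were tested, and 15 fell in KO, 16 in HET and 16 in WT. Tnr fell, with log2 differences of -2.24 ± 0.35 in KO and -2.31 ± 0.37 in WT, and so did Bcas1, with -1.79 ± 0.49 and -2.37 ± 0.52 (adjusted p at most 0.0016).

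The median log2 difference of the neuron members was -0.915 in KO, -1.20 in HET and -1.20 in WT, and 6 of the 8 tested fell in each. Map2 averaged 34.5 ± 15.1 TPM with LPS and 121 ± 38.6 untreated in KO (log2 difference -1.83 ± 0.30, adjusted p = 1.64e-06), and 40.3 ± 13.8 and 151 ± 34.5 in WT (log2 difference -1.91 ± 0.32, adjusted p = 1.66e-06). Dcx fell, with log2 differences of -1.81 ± 0.31 in KO, -1.45 ± 0.31 in HET and -1.58 ± 0.33 in WT, and so did Tubb3, with -0.85 ± 0.27, -1.32 ± 0.27 and -1.23 ± 0.29 (adjusted p at most 0.00553). The fall of Tubb3 in KO was lost with median-of-ratios scaling (-0.34, adjusted p = 0.167), with quantile normalization (-0.46, adjusted p = 0.0727) and without replicate 4 (-0.74, adjusted p = 0.0512). Gad1, which makes GABA, was not called in any genotype, with log2 differences of -0.18 ± 0.19, -0.13 ± 0.19 and 0.20 ± 0.20, and its value in WT was called higher with median-of-ratios scaling (0.55) and quantile normalization (0.71). Of 19 further neuron genes, 16 were tested and 12 fell in KO, 11 in HET and 14 in WT.

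Astrocyte members went both ways. In KO 3 of 7 fell and 1 rose, in HET 4 and 1, and in WT 4 and 1. The fourth in HET and WT was Aldh1l1, a folate enzyme used as an astrocyte marker, with -0.32 ± 0.20 in KO, -0.88 ± 0.20 in HET and -0.62 ± 0.21 in WT (adjusted p = 0.15, 0.000179 and 0.00883). Its WT call was lost with median-of-ratios scaling (-0.21, adjusted p = 0.454), quantile normalization (-0.02, adjusted p = 0.964), only the groups compared (adjusted p = 0.0518) and without replicate 1 or 4 (adjusted p = 0.0906 and 0.0679), its HET call with quantile normalization (-0.34, adjusted p = 0.218), and its sign in KO turned with both scalings (0.04 and 0.19). S100b fell, with log2 differences of -1.89 ± 0.42 in KO, -1.95 ± 0.42 in HET and -2.49 ± 0.45 in WT, and so did Slc1a3, with -1.36 ± 0.28, -1.29 ± 0.28 and -1.36 ± 0.30 (adjusted p at most 0.000174). Gfap was not called, with -0.31 ± 0.44, -0.85 ± 0.44 and -1.01 ± 0.47 (adjusted p = 0.543, 0.0827 and 0.0511), and in KO its sign turned with median-of-ratios scaling (0.20) and quantile normalization (0.09). With the replicate number as a block Gfap was called lower in KO (-0.31, adjusted p = 0.0346) and WT (-0.81, adjusted p = 9.81e-06).

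Gja1, which encodes the gap junction protein connexin 43 of astrocytes and fibroblasts, was the astrocyte member that rose, and was named after its values were seen. It read 3.53, 3.76, 4.21, 3.23 and 6.42 TPM with LPS in KO, against 1.15, 0.960, 2.07, 0.673 and 0.601 untreated (log2 difference 1.33 ± 0.42, adjusted p = 0.00565). In HET it read 3.78, 10.4, 7.44, 11.8 and 11.7, against 1.15, 0.435, 1.98, 0.148 and 0.616 (log2 difference 2.42 ± 0.42, adjusted p = 4.18e-06), and in WT 3.59, 14.5, 5.53, 6.70 and 7.68, against 1.30, 0.371, 0.685 and 0.408 (log2 difference 2.26 ± 0.45, adjusted p = 2.82e-05). No treated library overlapped with an untreated one of its genotype, and the rise was also called under both other scalings in all 3 genotypes, at 1.71 to 2.90.

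**Figure D5:**
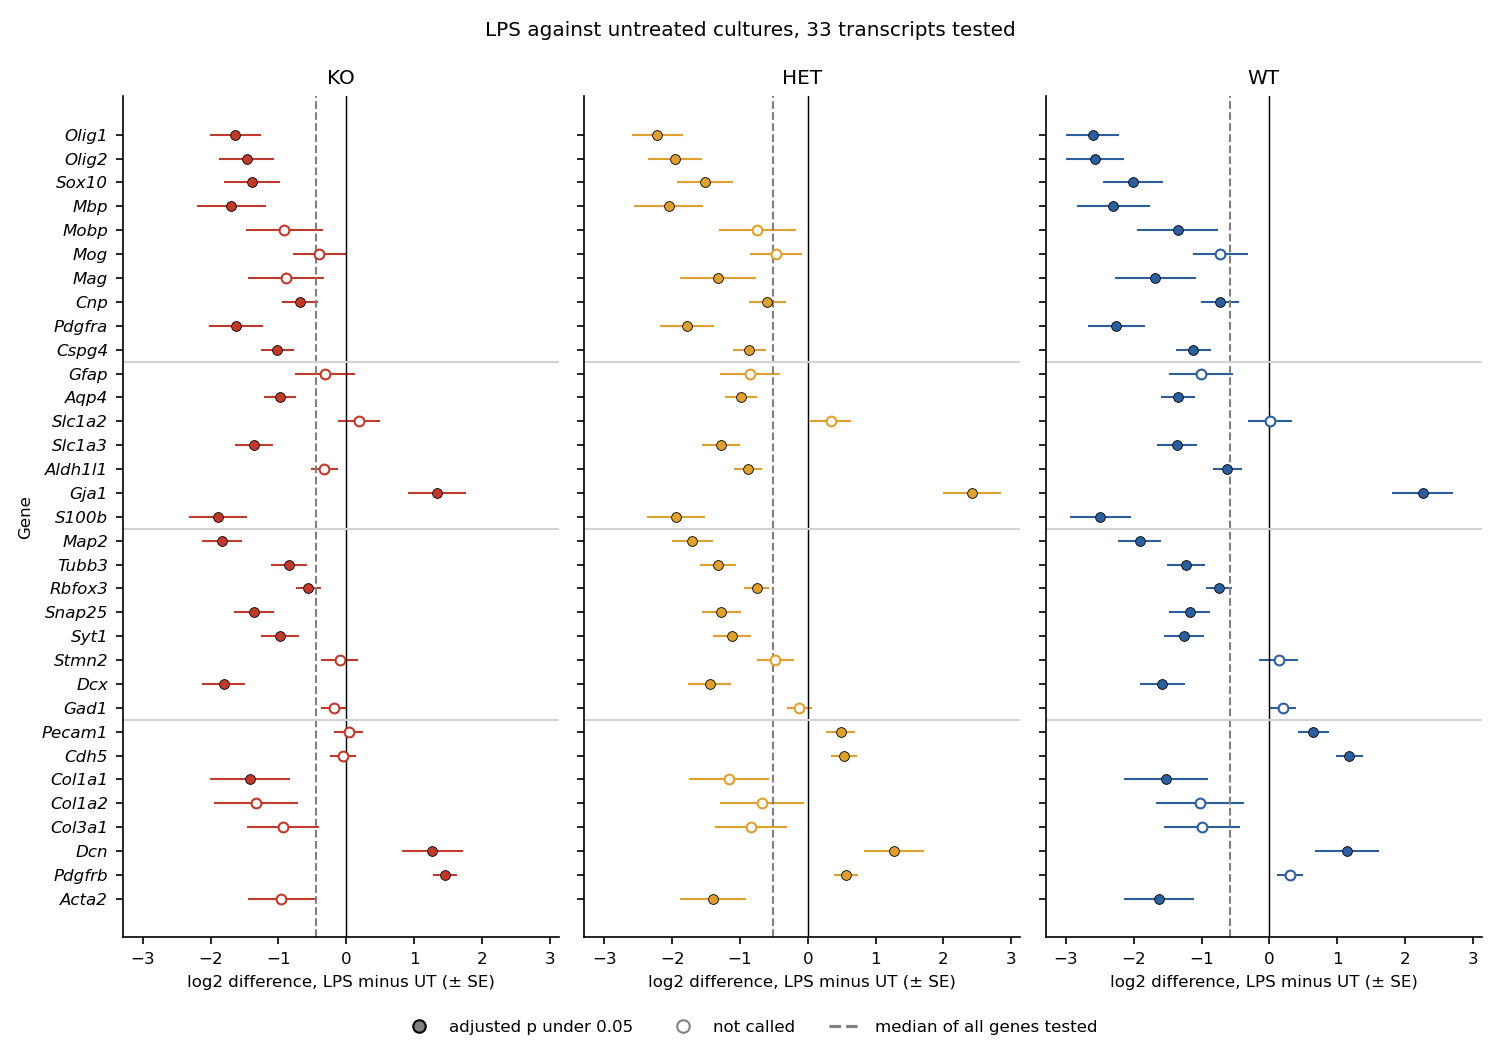
Log2 difference of LPS minus UT with its SE for the 33 transcripts tested, in KO, HET and WT. Filled points passed an adjusted p of 0.05, and the dashed line is the median of all genes tested (-0.444, -0.514 and -0.588). Oligodendrocyte and neuron genes lie left of that line for the most part, and Gja1 and Dcn lie right of 0 in all 3 panels.

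Vascular and stromal members also split. Of the 8 tested, 1 fell and 2 rose in KO, 1 and 4 in HET, and 2 and 3 in WT. Col1a1 averaged 1.80 ± 1.41 TPM with LPS and 8.92 ± 7.66 untreated in KO (log2 difference -1.42 ± 0.59, adjusted p = 0.0317), and 0.414 ± 0.219 and 3.40 ± 1.83 in WT (log2 difference -1.52 ± 0.63, adjusted p = 0.0271). Both calls of Col1a1 were lost with median-of-ratios scaling (adjusted p = 0.107 in KO and 0.0773 in WT), with quantile normalization (adjusted p = 0.147 and 0.13) and without single replicates (1, 2 or 3 in KO, adjusted p from 0.0746 to 0.176, and 1, 3 or 4 in WT, adjusted p from 0.066 to 0.121). Acta2 fell in HET (log2 difference -1.40 ± 0.49, adjusted p = 0.0104) and WT (log2 difference -1.63 ± 0.52, adjusted p = 0.00512) and had -0.96 ± 0.49 in KO, which was not called (adjusted p = 0.0806). In HET the fall of Acta2 was lost with median-of-ratios scaling (-0.95, adjusted p = 0.0652), with quantile normalization (-0.78, adjusted p = 0.142) and without replicate 1 or 3 (adjusted p = 0.0805 and 0.0597). In WT it was lost with quantile normalization (-0.93, adjusted p = 0.0978) and without replicate 1 (adjusted p = 0.0566). With the replicate number as a block Acta2 (-0.96, adjusted p = 0.0139) and Col1a2 (-1.33, adjusted p = 0.0344) were called lower in KO. Dcn, named after its values were seen, rose by 1.27 ± 0.45 in KO, 1.27 ± 0.45 in HET and 1.14 ± 0.48 in WT (adjusted p = 0.012, 0.011 and 0.0293).

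Median-of-ratios scaling moved the median LPS difference of all genes to -0.0309 in KO, -0.0505 in HET and -0.0559 in WT. The members called were then 4 higher and 13 lower in KO, 6 and 15 in HET, and 6 and 16 in WT, while 4669 and 4629 of all genes were called in KO, 5134 and 5186 in HET, and 5024 and 5139 in WT. Of the oligodendrocyte members 6, 5 and 6 were still lower and 0 higher, with class medians of -0.798, -0.836 and -1.23.

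In same-numbered cultures of 1 genotype the summed oligodendrocyte members with LPS were lower than untreated in 5 of 5 pairs in KO (0.295 to 0.459 of the untreated sum) and 4 of 4 in WT (0.246 to 0.344). Neuron sums were lower in 5 of 5 (0.248 to 0.483) and 4 of 4 (0.319 to 0.382), astrocyte sums in 4 of 5 (0.383 to 1.01) and 4 of 4 (0.318 to 0.52), and vascular and stromal sums in 4 of 5 (0.214 to 2.30) and 3 of 4 (0.451 to 1.48). HET numbers were not shown to pair the treatments, and the same ratios there were 0.253 to 0.333 for the oligodendrocyte and 0.231 to 0.396 for the neuron members.

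IL4 gave few calls in this set in the main fit, which does not use the replicate numbers. Of the 33 members tested 1 rose and 0 fell in KO, against 5.38% and 3.03% of all genes (8.41% either way). The counts were 1 and 0 in HET (3.97% and 3.09%, 7.05% either way), and 1 and 0 in WT (3.68% and 2.63%, 6.31% either way). In limma the counts at an unadjusted p of 0.05 were the same. The one gene was Pecam1, the adhesion molecule CD31 of endothelium, platelets and leukocytes. Pecam1 read 7.20, 2.51, 5.61, 4.82 and 2.93 TPM with IL4 in KO, against 0.504, 0.234, 0.898, 1.12 and 0.572 untreated (log2 difference 1.71 ± 0.22, adjusted p = 1.57e-07). In HET it read 4.02, 2.98, 3.84, 5.38 and 4.87, against 0.907, 0.381, 0.827, 0.328 and 0.188 (log2 difference 1.78 ± 0.22, adjusted p = 7.54e-08), and in WT 4.46, 3.42, 5.61, 4.17 and 2.51, against 0.735, 0.386, 0.723 and 0.515 (log2 difference 1.64 ± 0.23, adjusted p = 1.74e-06). The groups were apart in all 3 genotypes. Of the endothelial genes, Tek, Tie1 and Emcn, named after their values were seen, stayed at a mean of at most 0.0156 TPM in every IL4 group. Egfl7 averaged 2.38 TPM in KO, 2.74 in HET and 2.79 in WT with IL4, against 2.67, 2.95 and 2.44 untreated. Kdr averaged 0.929, 1.25 and 1.08 with IL4, against 1.55, 1.75 and 1.56 untreated. Of the further genes, Flt1 rose as well, to a mean of 110 TPM in KO and 113 in WT with IL4, against 25.9 and 25.8 untreated (2.07 ± 0.20 and 2.09 ± 0.21), and so did Fn1 (1.80 ± 0.31 and 1.69 ± 0.33).

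Within pairs of the same number, oligodendrocyte sums with IL4 were lower than untreated in 5 of 5 pairs in KO (0.811 to 0.865 of the untreated sum) and 4 of 4 in WT (0.823 to 0.891). Astrocyte sums were lower in 5 of 5 (0.779 to 0.917) and 4 of 4 (0.795 to 0.863), neuron sums in 5 of 5 (0.776 to 0.936) and 4 of 4 (0.809 to 0.997), and vascular and stromal sums in 3 of 5 (0.244 to 2.08) and 2 of 4 (0.725 to 1.51). In HET, where the numbers were not shown to pair the treatments, the oligodendrocyte ratios were 0.779 to 0.858. With the replicate number as a block, limma called 1 member higher and 4 lower in KO, against 7.78% and 8.15% of all genes in that fit, and 1 and 1 in WT, against 5.36% and 5.05%. The lower ones in KO were Mbp (-0.34, adjusted p = 0.000972), Sox10 (-0.39, adjusted p = 0.0167), Dcx (-0.34, adjusted p = 0.0314) and Mag (-0.52, adjusted p = 0.042). In WT it was Mbp (-0.26, adjusted p = 0.0238).

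The genotypes were compared to ask whether Tbk1 loss went with more or fewer transcripts of other cells. Untreated, limma called 0 members for KO against WT (0.0314% of all genes called, 0.0126% higher and 0.0189% lower), 0 for HET against WT (0.0126%) and 0 for KO against HET (0.00629%). At an unadjusted p of 0.05 there were 1 lower, 0, and 1 higher in these comparisons. The summed oligodendrocyte members averaged 1104 ± 420.2 TPM in KO, 1131 ± 303 in HET (n = 5 each) and 1573 ± 521 in WT (SD, n = 4). WT lacks the number 5 library, which is lowest elsewhere, and over numbers 1 to 4 alone the KO mean was 1246 ± 317 and the HET mean 1237 ± 216.5 (n = 4 each). Over all untreated libraries, with number 5 in KO and none in WT, the median member of the class differed by -0.52 for KO against WT. All genes tested had a median of -0.0897.

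Under IL4 0 members were called in each of the 3 genotype comparisons, KO against WT (0.044% of all genes called, 0.0251% higher and 0.0189% lower), HET against WT (0.0126%) and KO against HET (0.00629%), and 0 passed at an unadjusted p of 0.05 in limma. The response to IL4 did not separate KO from WT for any member (0 called, 0 at an unadjusted p of 0.05, 0% of all genes called).

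Under LPS the KO cultures had 1 member above WT and 3 below it, against 14.4% and 13.2% of all genes. None of the 10 oligodendrocyte members was called, and their class median was -0.0355, beside 0.00733 for all genes. Dcx was not called, with -0.72 ± 0.31 (adjusted p = 0.0867), but was called lower with median-of-ratios scaling (-0.78, adjusted p = 0.0161), quantile normalization (-0.69, adjusted p = 0.0309) and without replicate 5 (-0.71, adjusted p = 0.0461). The replicate number as a block was not shown to pair these genotypes. With it Olig1 (0.58, adjusted p = 0.0168), Olig2 (0.67, adjusted p = 0.0301) and Acta2 (0.99, adjusted p = 0.0326) were among the members called higher. Dcx (-0.72, adjusted p = 0.0024) was among those called lower, and 17.8% of all genes were higher and 16.7% lower. The summed oligodendrocyte members averaged 401 ± 158 TPM in KO, 343 ± 117 in HET and 406 ± 234 in WT (SD, n = 5 each).

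Pdgfrb, the growth factor receptor of pericytes and fibroblasts, was the member that was higher. It reached 1 TPM in 6 libraries, 4 of KO and 2 of HET with LPS, so it entered the test through the groups in which it is high. Under LPS it read 0.801, 3.43, 1.48, 2.54 and 3.08 TPM in KO, 0.495, 0.367, 1.27, 1.12 and 0.232 in HET and 0.294, 0.318, 0.411, 0.433 and 0.241 in WT. The KO and WT libraries did not overlap (log2 difference 1.21 ± 0.18, adjusted p = 5.69e-07), and KO was also above HET, with overlap (log2 difference 0.91 ± 0.18, adjusted p = 8.84e-05), the 1 member called in that comparison (12.5% of all genes higher and 11.5% lower). Pdgfrb rose with LPS in KO (log2 difference 1.46 ± 0.18, adjusted p = 2.96e-09) and HET (log2 difference 0.56 ± 0.18, adjusted p = 0.00427) and was not called in WT, with 0.30 ± 0.19 (adjusted p = 0.136). The WT value was called with median-of-ratios scaling (0.43, adjusted p = 0.0439) and quantile normalization (0.53, adjusted p = 0.0139), and the HET call was lost without replicate 4 (0.45, adjusted p = 0.0582). The response of KO minus that of WT was 1.16 ± 0.26 (adjusted p = 0.000985). Under LPS the pericyte genes Kcnj8 and Vtn were listed at 0 in every library, and Rgs5 averaged 0.0108 TPM in KO, 0.0482 in HET and 0.0216 in WT. Other further stromal genes, named after their values were seen, went both ways. Tagln averaged 1.87 TPM in KO, 0.544 in HET and 0.297 in WT, and Slc6a13 1.56, 0.619 and 0.397. Fn1 averaged 290, 44.3 and 24.2, and Col5a1 1.38, 0.584 and 0.606. Fbln1, Igf2, Sparc and Postn were not highest in KO, with Sparc at 28.5, 27.1 and 30.7.

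Cdh5, the cadherin of endothelial junctions, was lower in KO. Of the untreated, LPS and IL4 libraries it reached 1 TPM in 10, most of them with LPS and the rest untreated KO. All WT libraries with LPS were among them, so Cdh5 entered the test mainly through groups in which it is high. Under LPS it read 0.624, 0.396, 0.787, 0.520 and 1.02 TPM in KO, 0.942, 1.30, 2.16, 0.847 and 0.841 in HET and 2.34, 1.53, 3.35, 2.10 and 1.78 in WT. KO and WT did not overlap (log2 difference -0.93 ± 0.19, adjusted p = 0.000146). It rose with LPS in WT (log2 difference 1.18 ± 0.20, adjusted p = 2.45e-06) and HET (log2 difference 0.53 ± 0.19, adjusted p = 0.0118) and had -0.05 ± 0.19 in KO, which was not called. The HET call was lost without replicate 2 or 4 (adjusted p = 0.0576 and 0.0567). The response of KO minus that of WT was -1.22 ± 0.28 (adjusted p = 0.00123). Pdgfrb and Cdh5 were the 2 members, 1 higher and 1 lower, whose LPS responses differed, against 9.36% and 7.03% of all genes. With the replicate number as a block 4 were higher and 1 lower, against 13.2% and 9.31% of all genes, and the 3 added were Olig1 (0.70, adjusted p = 0.0144), Olig2 (0.80, adjusted p = 0.0392) and Mbp (0.31, adjusted p = 0.0303). Among the endothelial further genes Kdr was lower in KO under LPS (log2 difference -0.68 ± 0.17, adjusted p = 0.00164), as was Flt1 (log2 difference -0.53 ± 0.20, adjusted p = 0.044), while Tek and Emcn were listed at 0 in every KO and WT library.

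Pecam1 was lower in KO under LPS (log2 difference -0.56 ± 0.22, adjusted p = 0.0478), with 0.728, 0.882, 1.64, 0.282 and 0.210 TPM in KO and 1.36, 1.96, 1.95, 1.03 and 1.23 in WT. The groups overlapped, and the call was lost without replicate 1, 2, 4 or 5 (adjusted p from 0.0831 to 0.131), without a filter (adjusted p = 0.0939) and with only the groups compared (adjusted p = 0.0992). Gad1 was lower as well (log2 difference -0.69 ± 0.19, adjusted p = 0.00391), with 0.662, 0.350, 0.297, 0.256 and 0.226 TPM in KO and 1.17, 2.35, 1.16, 0.950 and 0.585 in WT, where the value of 2.35 in number 2 was the highest of all 59 libraries. Without replicate 2 the difference of Gad1 was -0.53 (adjusted p = 0.0587).

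HET differed from WT under LPS for 0 members (0.0126% of all genes called), with 0 higher and 2 lower, Gad1 and Cdh5, at an unadjusted p of 0.05, which 5.59% of all genes passed.

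Under pIC the KO cultures had 1 member above WT and 0 below it, against 3.4% and 8.11% of all 13919 genes tested. Aldh1l1 read 6.35, 7.93, 6.20, 6.59 and 9.22 TPM in KO, 5.21, 4.24, 4.95, 6.58 and 5.18 in HET and 3.80, 4.27, 4.31, 4.94 and 6.24 in WT (log2 difference 0.53 ± 0.14, adjusted p = 0.0228 for KO against WT). The number 5 WT library overlapped with the KO values. The call was lost without replicate 1, 2, 3 or 4 (adjusted p from 0.0517 to 0.0919) and with only the groups compared (adjusted p = 0.0504). The remaining 5 astrocyte members tested were not called. HET against WT had 0 members called and 0 at an unadjusted p of 0.05 (0% of all genes called), and KO against HET had 0 called (5.24% of all genes called). At an unadjusted p of 0.05 it had 6 of 24 higher, and 20.3% of all genes passed.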

How the data were processed

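RNA of cultured mouse microglia (300 ng per library, mRNA kit, per the labels) was sequenced, and the authors deposited TPM values per gene, 44 libraries together and 15 pIC libraries separately. FastQC, Trimmomatic, DRAGEN, Picard and the build mm10 appear in the submitters' processing notes. Versions and strand setting are not given in the sources used here. TPM sums ran from 999806 to 999936 over the 44 libraries, and no columns were identical.

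A gene entered the tests where at least 4 libraries of its file reached 1 TPM (15908 and 13919 genes). Testing was done on log2(TPM + 1) with limma 3.58.1 (lmFit, eBayes with trend, R 4.3.3, with the data.table package, version 1.17.8), 1 mean per group, all groups of one file sharing the spread. Such differences understate changes of low genes. The 20 comparisons were LPS or IL4 against UT, genotypes within treatments, and KO against WT responses. The 2 files were never tested against each other. Levels were summarised with Python 3.11.15 and pandas 2.3.3. The procedure was tested on simulated data.

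Members and gene lists were chosen with earlier results of these data known. Genes named by rule were the 3 highest untreated members of each class, members called between genotypes whose higher group averaged 1 TPM or more, and up to 3 highest genes of a further list.

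Same-numbered libraries deviated together, with every correlation over 0.1 across genes, for LPS and IL4 against UT in KO (0.130 to 0.558) and WT (0.117 to 0.418) and for HET against WT untreated (0.121 to 0.290). Those numbers were taken as pairs in the same-number ratios and in the fits with the replicate number as a block. The main fits used group means alone, so their SE and p do not use the pairs.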

Additional observations from a re-analysis of the deposited data

Results flagged for a closer look

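Within groups of 4 or 5, single libraries stood apart from the rest by more than the 95% limit for a gap, a rule that chance alone meets in about 1 of 20 groups. It was applied to 249 groups of 25 items, where chance would give about 12.5, and 20 were found. The items were the members named by rule, the class sums, and Col3a1, Dcn, Lum and Gja1, added after their values were seen. Class sums also repeat their own members, so the 20 cannot be weighed against the 12.5. HET IL4 number 2 was far above its group in Col1a2 (47.6 TPM), Col1a1 (17.6), Col3a1 (12.8), Dcn (17.4), Lum (1.85) and Gja1 (20), and its vascular and stromal sum was 104 TPM against 8.46 to 20.1 in the other 4. WT pIC number 4 was high in Col1a1 (6.93 TPM), Col1a2 (4.13), Col3a1 (6.99) and Acta2 (3.88), with a sum of 24 TPM against 2.84 to 4.61. Smaller cases of collagen genes were Col1a2 in HET UT number 1 (5.35 TPM), Col3a1 in WT IL4 number 4 (2.65) and Col3a1 in HET pIC number 3 (1.31). The vascular and stromal sum of WT UT number 2 was low, at 5.64 TPM against 18.6 to 18.7.

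Aldh1l1 was high in WT LPS number 2 (3.01 TPM) and low in HET IL4 number 3 (1.85 TPM). Gad1 was high in WT pIC number 5 (1.36 TPM), and Cdh5 in KO pIC number 1 (4.34 TPM).

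The LPS response differed between KO and WT, tested as the difference of the responses in limma, for Pdgfrb (1.16 higher in KO on the log2 scale) and for Cdh5 (-1.22). Pdgfrb reached 1 TPM only in KO and HET libraries with LPS, so it entered the test through the groups in which it is high. Cdh5 reached 1 TPM mostly in libraries with LPS, all of WT among them, so the same limit holds for it in the main.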

How the results depend on the processing

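The counts of members called in the 20 comparisons were recomputed under each alternative, and no called value of a member named by rule reversed. Cnp, named after its values were seen, was outside that check, and its sign turned in HET with LPS as given above. Keeping genes with at least 5 TPM left 1 call (lower) for KO against WT under LPS, 0 for KO against HET under LPS and 0 for the difference of the LPS responses, since Pdgfrb, Cdh5 and Gad1 do not reach 5 TPM. With quantile normalization KO against HET under LPS had 2 calls. With only the groups compared it had 3, and KO against WT under pIC had 0. Shares of all genes under these settings are not given here, so these counts describe the settings alone. The replicate block gave 5 calls for IL4 against UT in KO, 6 in HET and 2 in WT, 9 for KO against WT under LPS (4 higher, 5 lower), 2 for KO against HET under LPS, 2 for KO against HET under pIC and 5 for the difference of the LPS responses. For IL4 the shares of all genes called higher and lower in that fit were 7.78% and 8.15% in KO. They were 5.87% and 9.64% in HET and 5.36% and 5.05% in WT. For KO against WT under LPS they were 17.8% and 16.7%, and for KO against HET under LPS 16.1% and 13.8%. For KO against HET under pIC they were 3% and 5.7%, and for the difference of the LPS responses 13.2% and 9.31%. Apart from HET and WT untreated, numbers were not shown to pair the genotypes, nor the HET treatments. The block changed the other 13 counts by at most 1.5 times.

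Leaving out 1 replicate gave 0 to 2 calls for KO against WT under pIC and kept the other 19 counts within 1.5 times of their value. So did, for all 20, a pseudocount of 0.1, testing every gene with no filter, and median-of-ratios scaling. Of 3885 values of members named by rule under an alternative, 44 gained and 50 lost a call. The causes were not tested. TPM gives no depth, so values under about 1 TPM carry an unknown counting error, and a rise of abundant genes lowers the TPM of all others. A few markers are also made by macrophages.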

Other observations

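Ttr, the transthyretin gene of choroid plexus, was high in a few libraries, and was chosen after its values were seen. WT number 1 held 47.1 TPM with LPS, 15.6 with IL4, 62.7 untreated and 10.9 with pIC, and it was the highest library of its WT group each time. This is also the culture with the highest Mobp and Mog in all of the untreated libraries. Elsewhere no culture was high in every treatment. KO number 4 was highest of its group with IL4 and pIC, and HET number 1 with pIC, with IL4 and untreated. KO number 4 held 33.0 TPM with IL4 and 4.77 with pIC, while all KO libraries with LPS were at 0 and the highest untreated one was number 2 at 1.51. HET number 1 held 25.4 with pIC, 0.931 with IL4 and 0.867 untreated, and no HET library with LPS was above 0.21. The median of Ttr was 0 TPM over the 20 KO libraries, 0 over the 20 HET libraries and 0.099 over the 19 WT libraries. Foxj1, a gene of ciliated ependymal cells from the same list of 8, averaged 1.52 TPM untreated and fell with LPS in all 3 genotypes (log2 difference -0.86 in KO, -1.01 in HET and -0.79 in WT, adjusted p at most 0.00209 by limma). The WT call was lost with quantile normalization.

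Postn, a matrix gene of fibroblasts in the list of 12 further stromal genes, also chosen after its values were seen, rose with IL4 by 4.55 ± 0.26 in KO, 4.75 ± 0.26 in HET and 4.89 ± 0.28 in WT on the log2 scale (adjusted p at most 1.45e-16 by limma). It is also known as an IL4-induced gene of other cell types. The collagen genes Col1a1, Col1a2 and Col3a1 were not called with IL4 in any genotype. They varied widely between libraries, as with Col1a2 at 0.359 to 47.6 TPM in HET with IL4. Which cells made Postn was not tested.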
